A study of Mus musculus with 12 samples.

Results

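Fibroblast growth factor (FGF) signalling reaches the nucleus of an osteoblast through receptor tyrosine kinases and the RAS-ERK cascade. The 10 genes described here are the FGF receptors Fgfr1, Fgfr2 and Fgfr3 and the genes that ERK activity is known to switch on as its own brake or read-out, namely Spry1, Spry2, Spry4, Spred1, Dusp6, Etv4 and Etv5. They were named by symbol and matched to the Ensembl identifiers of the count files through the GENCODE M21 annotation of the mouse genome (build GRCm38, mm10). They are 10 of 52654 genes present in all files. All 10 passed the filter on low counts and are among the 13340 genes tested.

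As background, an FGF ligand bound to heparan sulphate brings receptors together, the receptors recruit adaptor proteins, and RAS, RAF, MEK and ERK are activated in turn. ERK then induces transcription factors of the ETS family and several inhibitors: Sprouty and Spred proteins act on the path from receptor to RAF, and the phosphatase DUSP6 removes the activating phosphates from ERK in the cytoplasm. In bone, FGF receptor signalling controls how osteoblast precursors divide and mature, and activating changes in these receptors cause disorders of skull sutures and of long bone growth.

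The cells were MC3T3-E1 subclone 14, a mouse preosteoblast line from calvaria, grown on titanium discs with a plain (control) or a nanotopography surface. The medium of all 4 groups was osteogenic, with ascorbic acid at 5 µg/mL and β-glycerophosphate at 7 mM, and RNA was taken at day 7. The isolated groups grew alone on each surface, without osteoclasts. In the co-culture groups, osteoclasts made from RAW 264.7 macrophage-like cells with 50 ng/mL RANKL hung above the osteoblasts for the last 2 days, after 5 days apart, on inserts with 0.4 µm pores, so that the cell types shared medium without touching. RANKL and the insert came only with the osteoclasts, and the 3 cannot be told apart. Each group had 3 libraries, called biological triplicates by the submitters, and since all come from 1 subclone the p-values measure the spread between cultures of that line.

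The 12 libraries held between 5866842 and 9207831 counts. All 11 osteoblast markers were detected in each group, with a summed level of 82933 to 96501 CPM (counts scaled to a common library total) in isolated cells on control titanium and 44532 to 56379 CPM in co-culture on nanotopography, most of it Col1a1 and Col1a2. The 10 osteoclast markers summed to 289 to 303 CPM in isolated cells on control titanium and 300 to 316 on nanotopography, and to 349 to 355 and 298 to 384 CPM in the co-cultures on these surfaces, led by Ctsk, with Calcr at 0 in all libraries and Dcstamp and Atp6v0d2 at 0 in both isolated groups. The 10 macrophage markers summed to 4.6 to 8.11 CPM in isolated cells on control titanium and 4.58 to 6.51 on nanotopography, and to 5.65 to 10.3 and 11.4 to 35.4 CPM in the co-cultures on these surfaces. Ptprc, Adgre1, Itgam and Tyrobp were at 0 in both isolated groups, and none of the 10 was at 0 in co-culture on nanotopography. Of all counts, 8.66 to 15.8% fell on mt-Rnr1 and mt-Rnr2, the ribosomal RNAs of mitochondria, in co-culture on nanotopography and 4.52 to 9.8% in the other groups. For the RNAs Gm26917 and Gm42418 the shares were 0.35 to 0.8% and 1.52 to 8.33%. The part of these transcripts in the values below was not tested.

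Fold changes moved with transcript GC content, most steeply with osteoclasts on nanotopography and in the interaction. With osteoclasts on nanotopography, the median log2 fold change ran from 1.01 over the 999 tested genes with a transcript GC content under 40% to -1.34 over the 489 genes at 60% or more. The corresponding medians with osteoclasts on control titanium were -0.25 and -0.19. Between the surfaces they were -0.57 and 0.28 in isolated cells and 0.67 and -0.92 in co-culture, and in the interaction 1.25 and -1.19. Values are therefore given from the uncorrected fit and, where a call, or the direction or size of a called value, changed, also after the trends of every library with GC content and exonic length had been taken out, called GC-corrected below. CPM were computed on totals scaled by TMM and RPKM are the same divided by exonic length in kilobases. Each adjusted p is from edgeR's quasi-likelihood test on counts with Benjamini-Hochberg adjustment over all tested genes, and a gene was called below 0.05.

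Per unit of length, Fgfr2 led the group in every condition. In isolated cells on control titanium it stood at 58.8 ± 1.47 RPKM (SD, n = 3), followed by Fgfr1 at 28.4 ± 2.2, Fgfr3 at 20.6 ± 0.666, Spred1 at 16.2 ± 1.3 and Dusp6 at 9.19 ± 0.434 RPKM. The next were Spry1 at 4.03 ± 0.877, Spry2 at 1.8 ± 0.368, Etv4 at 0.998 ± 0.161, Etv5 at 0.488 ± 0.138 and Spry4 at 0.177 ± 0.135 RPKM. In this group the 3 libraries of each gene lay apart from those of its neighbour in the order. In co-culture on nanotopography Fgfr2 was at 61.9 ± 2.07 RPKM and Spred1, at 23.8 ± 2.48, stood above Fgfr1 at 17.9 ± 1.98 and Fgfr3 at 15.4 ± 0.962. The libraries of Fgfr1 and Fgfr3 overlapped there, as did those of Etv4 with Etv5 and of Etv4 with Spry4. The receptors were read from 721 to 6215 counts per library, Spred1 from 513 to 1250, Dusp6 from 161 to 265 and Spry1 from 49 to 107, and Spry2, Etv4, Etv5 and Spry4 from 2 to 72.

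**Figure D1:**
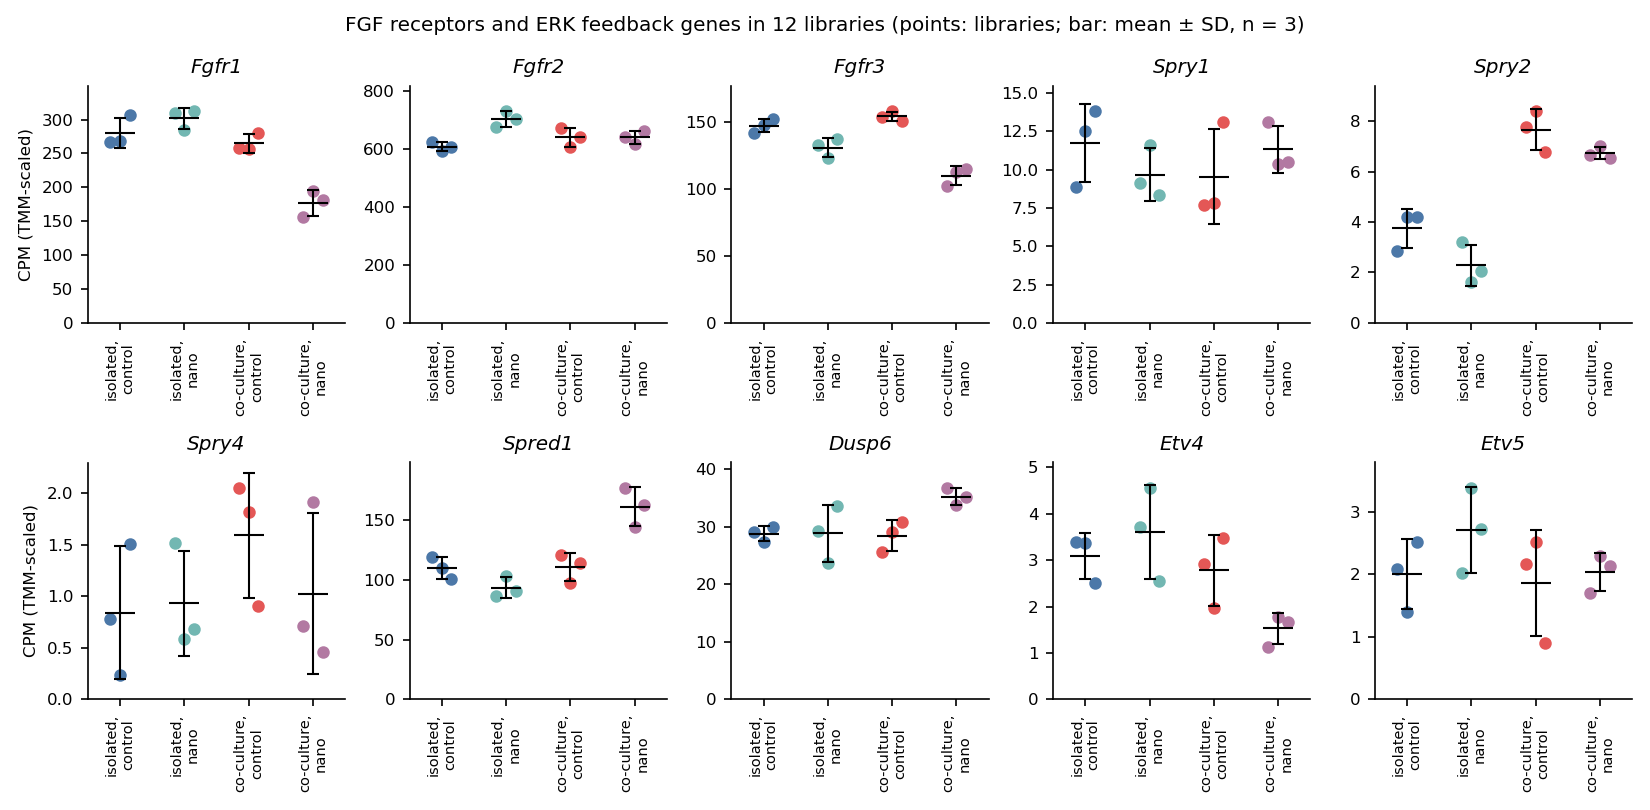
Level of each gene in CPM (TMM-scaled totals, linear axis from 0) in the 4 groups; points are libraries and bars the mean ± SD of 3. Spry2 stands higher in both co-culture groups than in both isolated groups, while Fgfr1, Fgfr3 and Etv4 are lowest and Spred1 highest in co-culture on nanotopography.

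With osteoclasts on control titanium, Spry2 rose and no other gene of the 10 passed the test. That is 1 member called of 10, beside 19.7% of all tested genes (10.9% higher and 8.72% lower), and the median log2 fold change of the 10 was 0.00 against -0.02 over all genes. With osteoclasts on nanotopography 5 of the 10 were called, Spry2 and Spred1 higher and Fgfr1, Fgfr3 and Etv4 lower, beside 59.2% of all genes (28.7% higher and 30.4% lower). The median there was 0.03 against 0.00 over all genes. Both shares are close to or under those of genes at large, so the counts alone do not set the 10 genes apart. Groups that did not overlap were found for 1 member on control titanium, where 36.1% of genes did not overlap, and for 7 on nanotopography, where 64.4% did not.

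Spry2, a Sprouty protein that dampens receptor tyrosine kinase signalling to ERK, was the member that rose on both surfaces. Its gene (ENSMUSG00000022114.5) lies on the minus strand of chromosome 14, from 105891947 to 105896819. In isolated cells on control titanium the libraries held 2.87, 4.2 and 4.21 CPM, and in co-culture on that surface 7.79, 8.39 and 6.78 CPM. Isolated cells on nanotopography held 3.2, 1.62 and 2.04 CPM, and co-cultured cells there 6.67, 7 and 6.54 CPM. Every co-culture library was above every isolated library, on either surface. On control titanium the summed osteoclast markers were also apart between isolated and co-culture libraries, and the summed macrophage markers were not. Of the 5 osteoclast markers tested, 1 was called there, Itgb3, at a log2 fold change of 1.15 (edgeR adjusted p = 1.34e-06). Ctsk, Mmp9 and Nfatc1 were at 0.02, 0.02 and 0.00. Atp6v0d2, at 0 in isolated cells, was not called at 4.21 ± 1.78 (edgeR adjusted p = 0.115). The sum on control titanium thus rose mainly with Itgb3. On nanotopography the summed macrophage markers were apart and the osteoclast markers were not. The part of the marker transcripts in the rise of Spry2 was not tested. Counts behind these values were 11 to 36 per isolated library and 43 to 72 per co-culture library. The rise was 2.04-fold on control titanium, a log2 fold change of 1.03 ± 0.23 (SE; edgeR adjusted p = 0.00494), and 2.96-fold on nanotopography, 1.57 ± 0.26 (edgeR adjusted p = 9.12e-05). After GC correction the values were 1.07 ± 0.23 (edgeR adjusted p = 0.00164) and 1.36 ± 0.26 (edgeR adjusted p = 4.22e-04). Tested genes within 1 percentage point of Spry2's GC content of 46.19% had median log2 fold changes of 0.00 on control titanium and 0.27 on nanotopography. The larger value on nanotopography did not differ from that on control titanium beyond error, with an interaction of 0.54 ± 0.36 on the log2 scale, an approximate 95% interval of -0.16 to 1.24 and an edgeR adjusted p of 0.224.

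The 250 bases before the annotated starts of Spry2 and Dusp6 are printed to set the member that rose on both surfaces beside a feedback gene that was not called on either one in the uncorrected fit. They are RefSeq sequence of build GRCm38.p6, each 5′ to 3′ on the strand of its gene: Spry2 is chr14:105896820-105897069 on the minus strand and Dusp6 chr10:99262981-99263230 on the plus strand. Capitals mark GGAA, the core of the sequence that ETS factors such as Etv4 and Etv5 bind, or TTCC, the same core on the other strand.
Spry2: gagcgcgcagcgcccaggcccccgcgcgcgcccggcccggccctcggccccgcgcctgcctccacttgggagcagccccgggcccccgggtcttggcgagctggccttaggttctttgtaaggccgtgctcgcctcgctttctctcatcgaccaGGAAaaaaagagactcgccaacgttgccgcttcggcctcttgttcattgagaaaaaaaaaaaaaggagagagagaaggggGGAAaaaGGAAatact
Dusp6: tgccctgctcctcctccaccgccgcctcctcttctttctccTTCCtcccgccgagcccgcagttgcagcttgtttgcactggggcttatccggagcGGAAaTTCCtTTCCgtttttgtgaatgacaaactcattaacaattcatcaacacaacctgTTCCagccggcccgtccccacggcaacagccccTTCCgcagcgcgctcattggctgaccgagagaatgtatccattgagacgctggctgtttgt
The Spry2 window holds 3 matches and the Dusp6 window 6. Over the 32536 promoter windows of this length the median is 3 and the 90th percentile 5, and 93.4% hold at least 1. Neither window holds the longer ETS sequence CCGGAA, found in 12.1% of windows, the AP-1 site TGACTCA, found in 4.45%, or the cyclic AMP response element TGACGTCA, found in 1.56%, on either strand. These matches are letters in a window and no measurement of binding. The table of RefSeq windows matched 7 of the 10 genes.

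Dusp6, the phosphatase specific for ERK and a common read-out of FGF signalling, was at 29.1, 27.3 and 29.9 CPM in isolated cells on control titanium and at 25.5, 29.1 and 30.7 CPM in co-culture there. Isolated cells on nanotopography held 29.2, 23.7 and 33.5 CPM, and co-cultured cells 36.7, 33.7 and 35.1 CPM. The groups overlapped on control titanium, and on nanotopography they were apart by a narrow gap. The log2 fold change on control titanium was -0.02 ± 0.13, with an approximate 95% interval of -0.28 to 0.24 (edgeR adjusted p = 0.939). On nanotopography it was 0.29 ± 0.13 (edgeR adjusted p = 0.0646), and 0.34 ± 0.12 after GC correction (edgeR adjusted p = 0.0296). Dusp6 on nanotopography therefore lay near the threshold: it was not called uncorrected and was called after correction, or when the third isolated library on that surface was left out, at 0.41 ± 0.14 (edgeR adjusted p = 0.0276).

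Spry1, the Sprouty gene with the highest level here, was at 8.87, 12.5 and 13.8 CPM in isolated cells and 7.68, 7.83 and 13.1 CPM in co-culture on control titanium. On nanotopography it was at 9.1, 11.6 and 8.34 CPM in isolated cells and 13.1, 10.4 and 10.5 CPM in co-culture. The groups overlapped on both surfaces, and neither uncorrected difference was called, at -0.31 ± 0.22 on control titanium (edgeR adjusted p = 0.362) and 0.22 ± 0.23 on nanotopography (edgeR adjusted p = 0.424) on the log2 scale. Spry1 has a GC content of 56.73%, and the 1010 tested genes within 1 point of it had a median of -0.80 with osteoclasts on nanotopography. After GC correction its value on that surface was 1.03 ± 0.23 (edgeR adjusted p = 0.00154). Exons of Spry1 overlap 710 bases of Gm42922 on the opposite strand, a gene with 23 counts in all 12 libraries, and reads of the pair cannot be told apart without strand.

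Spry4, the third Sprouty gene, had 2 to 19 counts per library, and none of its differences was called. Its log2 fold change on control titanium was 1.04 ± 0.59, with an approximate 95% interval of -0.11 to 2.20 (edgeR adjusted p = 0.225), so a rise of the size seen for Spry2 was not detectable at this depth.

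Spred1, a Sprouty-related inhibitor that brings neurofibromin to RAS at the membrane, had a different pattern. Isolated cells on control titanium held 119, 110 and 101 CPM, and co-cultured cells there 121, 97.8 and 114 CPM. On nanotopography the values were 86.4, 103 and 91 CPM in isolated cells and 177, 144 and 163 CPM in co-culture. All co-culture libraries on nanotopography were above the other 9 libraries, and on control titanium the groups overlapped. The log2 fold change was 0.01 ± 0.12 on control titanium (edgeR adjusted p = 0.951) and 0.79 ± 0.12, or 1.73-fold, on nanotopography (edgeR adjusted p = 2.53e-05). Spred1 has the lowest GC content of the 10 genes, 41.22%, and the 957 tested genes within 1 point of it had a median of 0.75 in the same comparison. After GC correction Spred1 was at 0.02 ± 0.08 on nanotopography (edgeR adjusted p = 0.836), so its rise was no larger than that of genes of like composition.

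Fgfr1, the receptor that carries much of FGF signalling in mature osteoblasts, is encoded on chromosome 8 from 25513654 to 25575718 on the plus strand (ENSMUSG00000031565.18). It was at 267, 269 and 306 CPM in isolated cells and 258, 256 and 280 CPM in co-culture on control titanium. On nanotopography it was at 310, 284 and 312 CPM in isolated cells and 156, 194 and 182 CPM in co-culture. The latter 3 libraries were below all others. The log2 fold change was -0.09 ± 0.10 on control titanium (edgeR adjusted p = 0.601) and -0.77 ± 0.10 on nanotopography, 1.70-fold lower (edgeR adjusted p = 1.16e-05). The 1167 tested genes within 1 point of its GC content of 55.43% had medians of 0.08 and -0.65. After GC correction Fgfr1 was lower by a small amount on both surfaces, at -0.19 ± 0.07 on control titanium (edgeR adjusted p = 0.0492) and -0.24 ± 0.07 on nanotopography (edgeR adjusted p = 0.00946). With the replicate number as a block the former was no longer called (edgeR adjusted p = 0.0743).

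Fgfr2, the most abundant of the receptors, had the least spread of the 10 genes, a root mean square of 0.089 in log2 CPM over the 12 libraries. It was at 622, 592 and 607 CPM in isolated cells and 672, 605 and 641 CPM in co-culture on control titanium, and at 676, 729 and 704 CPM and 640, 617 and 660 CPM on nanotopography. Groups overlapped on control titanium and were apart on nanotopography. The log2 fold changes with osteoclasts were 0.08 ± 0.09 on control titanium (edgeR adjusted p = 0.591) and -0.14 ± 0.09 on nanotopography (edgeR adjusted p = 0.19), with approximate 95% intervals of -0.10 to 0.25 and -0.31 to 0.04. Neither was called after GC correction. Fgfr2 shares 314 exonic bases with Ctbp2 on the same strand, a gene with 1507 counts in the 12 libraries.

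Fgfr3, the receptor best known as a brake on growth plate cartilage, was at 142, 148 and 152 CPM in isolated cells and 154, 158 and 151 CPM in co-culture on control titanium. On nanotopography it was at 133, 123 and 137 CPM in isolated cells and 102, 113 and 115 CPM in co-culture. The groups overlapped on control titanium and were apart on nanotopography. Its log2 fold change was 0.06 ± 0.09 on control titanium (edgeR adjusted p = 0.661) and -0.25 ± 0.09 on nanotopography (edgeR adjusted p = 0.0277). This call depended on the setting: it was lost with no low-count filter (edgeR adjusted p = 0.104) and with only the groups compared (edgeR adjusted p = 0.0613). Leaving out 1 library gave an edgeR adjusted p of 0.0528, 0.0537 or 0.0961 without one of the co-cultures on nanotopography, and 0.0717 or 0.0875 without the first or the third isolated library there. The direction also turned with composition, since the 1077 genes of like GC content had a median of -0.75 and the GC-corrected value of Fgfr3 was 0.43 ± 0.08 (edgeR adjusted p = 3.24e-04). Exons of Fgfr3 overlap 998 bases of G630022F23Rik on the opposite strand, which had 96 counts in all.

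As a share of the summed RPKM of the 3 receptors, Fgfr2 made up 54.5% ± 1.61 (SD, n = 3) in isolated cells on control titanium, 58.2% ± 2.07 in isolated cells on nanotopography, and 56.1% ± 1.45 and 65% ± 2.28 in the co-cultures on these surfaces. The share of Fgfr1 was 26.3% ± 1.39, 26.1% ± 1.3, 24.3% ± 1.14 and 18.8% ± 1.75 in the same order. That of Fgfr3 was 19.1% ± 0.581, 15.7% ± 0.78, 19.6% ± 0.993 and 16.2% ± 0.558. The 3 co-cultures on nanotopography had a larger share of Fgfr2 and a smaller share of Fgfr1 than the other 9 libraries. The shares are uncorrected, and Fgfr2 has a lower GC content (50.24%) than Fgfr1 and Fgfr3 (56.37%). In cultures lysed whole, fewer cells of a type and less RNA per cell cannot be told apart.

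Etv4 and Etv5 are ETS transcription factors whose transcripts follow FGF signalling in many tissues. Etv4 was at 3.39, 3.38 and 2.52 CPM in isolated cells and 2.92, 1.96 and 3.47 CPM in co-culture on control titanium. On nanotopography it was at 3.71, 4.56 and 2.55 CPM in isolated cells and 1.14, 1.78 and 1.67 CPM in co-culture, from 8, 14 and 11 counts. The co-culture on nanotopography was below all other libraries. Its log2 fold change was -0.17 ± 0.30 on control titanium (edgeR adjusted p = 0.733) and -1.23 ± 0.34, 2.35-fold lower, on nanotopography (edgeR adjusted p = 0.00468). Etv4 has the highest GC content of the 10 genes, 58.71%, where like genes had a median of -0.96, and after GC correction the value was -0.24 ± 0.35 (edgeR adjusted p = 0.62). Etv5 had 6 to 23 counts per library and was not called, at -0.05 ± 0.38 on control titanium (edgeR adjusted p = 0.943) and -0.41 ± 0.37 on nanotopography (edgeR adjusted p = 0.343).

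**Figure D2:**
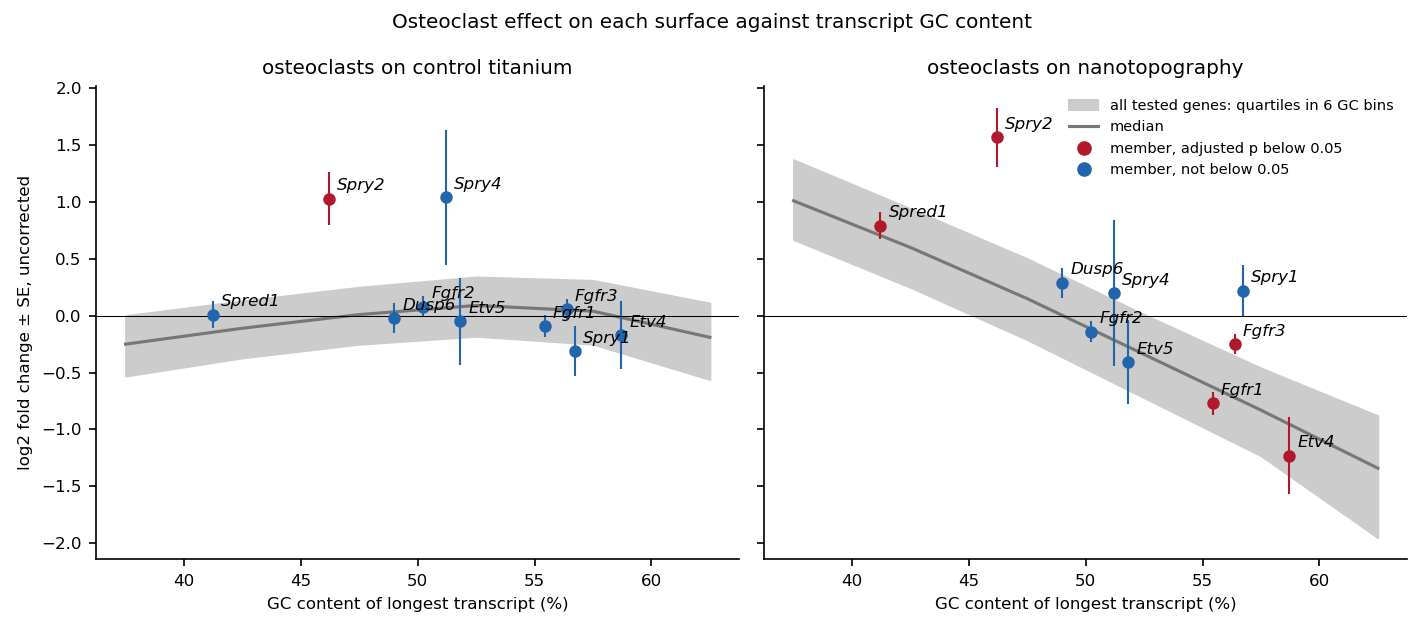
Uncorrected log2 fold change with osteoclasts (y, ± SE) against transcript GC content (x, %) on each surface; the grey band and line are the quartiles and median of all tested genes in 6 GC bins, and points are the 10 genes. On nanotopography the median falls from 1.01 to -1.34 across the bins and Spred1, Fgfr1 and Etv4 lie on or near it, while Spry2 lies above the band on both surfaces.

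After GC correction 2 of the 10 were called with osteoclasts on control titanium, Spry2 higher and Fgfr1 (not with the block) lower, beside 26.7% of all genes (14.4% higher and 12.4% lower). On nanotopography 5 were called, beside 40.4% of all genes (19.1% higher and 21.4% lower): Spry1, Spry2, Dusp6 and Fgfr3 higher and Fgfr1 lower. Spry2 and Fgfr1 were the 2 members called in the same direction before and after correction there.

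For the surface alone, in isolated cells, the uncorrected edgeR fit called none of the 10 genes, beside 9.71% of all genes called in that comparison (4.32% higher and 5.39% lower). That share rests on single libraries: without 1 of the 6, between 3 and 2877 genes were called in place of 1295, and none of the 10 in any of these fits. With unadjusted p below 0.05 there were 2, Fgfr2 and Spry2, and DESeq2 called 1, Fgfr2. Fgfr2 was at 592 to 622 CPM on control titanium and 676 to 729 CPM on nanotopography, a log2 fold change of 0.21 ± 0.09 (edgeR adjusted p = 0.123; DESeq2 adjusted p = 0.0393). Spry2 was at -0.72 ± 0.28 (edgeR adjusted p = 0.104), with overlapping groups. Fgfr3 was at -0.17 ± 0.09 (edgeR adjusted p = 0.236), and after GC correction it was the 1 member called, beside 5.11% of all genes (3.22% higher and 1.9% lower), at -0.38 ± 0.08 (edgeR adjusted p = 0.0115). The groups of Fgfr2 and of Fgfr3 did not overlap, where 29.9% of all genes did not.

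Between the surfaces in co-culture, 3 of the 10 genes were called, beside 42% of all genes (18.6% higher and 23.3% lower). Fgfr1 was lower on nanotopography by a log2 fold change of -0.58 ± 0.10 (edgeR adjusted p = 6.29e-04), Fgfr3 by -0.49 ± 0.09 (edgeR adjusted p = 9.51e-04), and Spred1 was higher by 0.54 ± 0.11 (edgeR adjusted p = 0.00201). None of the 3 was called after GC correction, at -0.14 ± 0.07, 0.08 ± 0.08 and 0.06 ± 0.08. The 2 members called then, beside 18% of all genes (7.53% higher and 10.4% lower), were Spry1 at 0.89 ± 0.23 (edgeR adjusted p = 0.0114) and Dusp6 at 0.35 ± 0.12 (edgeR adjusted p = 0.0471). Spry2 was at -0.18 ± 0.22 with an approximate 95% interval of -0.61 to 0.24 (edgeR adjusted p = 0.509). Etv4 was at -0.85 ± 0.34 (edgeR adjusted p = 0.0538), and at -1.04 without the second co-culture library on control titanium (edgeR adjusted p = 0.0394). Libraries of 5 members, Fgfr1, Fgfr3, Spred1, Dusp6 and Etv4, did not overlap between the surfaces, where 53.4% of genes did not.

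The interaction asks whether the osteoclast effect differed between surfaces, and it was called for 2 of the 10 genes, beside 47.8% of all genes (22.4% higher and 25.4% lower). Fgfr1 had an interaction of -0.68 ± 0.15 (edgeR adjusted p = 0.0015) and Spred1 of 0.78 ± 0.16 (edgeR adjusted p = 0.00134) on the log2 scale. Genes of like GC content had medians of -0.76 and 0.90. After GC correction the values were -0.05 ± 0.10 (edgeR adjusted p = 0.746) and -0.09 ± 0.11 (edgeR adjusted p = 0.599). Called after correction, beside 21% of all genes (8.65% higher and 12.3% lower), were Fgfr3 at 0.46 ± 0.11 (edgeR adjusted p = 0.00898) and Spry1 at 1.38 ± 0.32 (edgeR adjusted p = 0.00622).

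**Figure D3:**
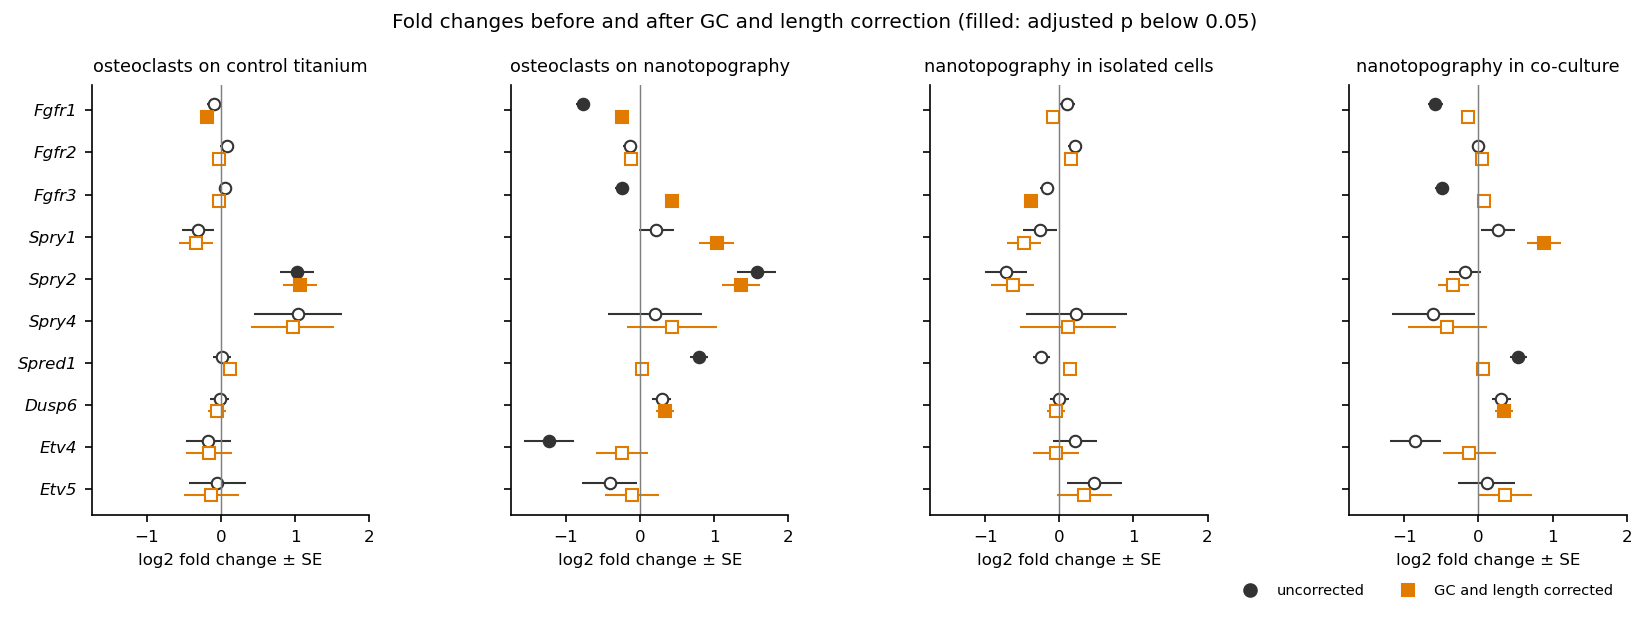
Log2 fold change ± SE of each gene in the 4 comparisons, uncorrected (circles) and after correction for GC content and length (squares); filled symbols have an adjusted p below 0.05. Spry2 is filled in both columns for osteoclasts under either treatment of the data, and Fgfr3 with osteoclasts on nanotopography lies at -0.25 uncorrected and 0.43 corrected.

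Few FGF ligand genes were read deeply enough to be tested. Of 24 listed FGF ligand and binding protein genes, 4 passed the filter, and Fgf18, a ligand of osteoblast precursors, had 19 counts in all 12 libraries. Fgf2, the basic FGF, fell with osteoclasts on control titanium from 5.28 ± 0.347 to 2.08 ± 0.233 CPM (SD, n = 3), a log2 fold change of -1.34 ± 0.30 (edgeR adjusted p = 0.00428), and was at 0.30 ± 0.29 on nanotopography (edgeR adjusted p = 0.378) and -0.35 there after GC correction (edgeR adjusted p = 0.325). Fgf7, a ligand of the epithelial form of Fgfr2, was at 0.22 ± 0.16 on control titanium uncorrected (edgeR adjusted p = 0.339) and was called there after GC correction, at 0.46 (edgeR adjusted p = 0.00177). It rose on nanotopography from 22.7 ± 3.51 to 66.4 ± 10 CPM, at 1.54 ± 0.16 uncorrected (edgeR adjusted p = 8.91e-07) and 0.61 after GC correction (edgeR adjusted p = 1.11e-04). Isolated cells on control titanium held 35.5 ± 7.82 CPM of Fgf7. Nanotopography alone thus lowered it, at -0.65 ± 0.17 uncorrected (edgeR adjusted p = 0.0274) and -0.12 corrected (edgeR adjusted p = 0.558). Fgf11, an intracellular member of the family that is not a receptor ligand, rose with osteoclasts on nanotopography from 2.23 ± 0.548 to 4.99 ± 0.171 CPM, at 1.14 ± 0.29 (edgeR adjusted p = 0.0028) and 1.58 corrected. The interaction was called for Fgf2 at 1.64, Fgf7 at 1.32 and Fgf11 at 1.14, and after correction for Fgf11 alone of the 4, at 1.65 (edgeR adjusted p = 0.0116). Over all genes the interaction was called for 47.8%, and for 21% after correction.

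Among 15 other receptors and co-receptors, 10 were tested, and Fgfr4 and the FGF23 co-receptor Kl had 0 counts in all 12 libraries. The heparan sulphate proteoglycan Gpc4 was the 1 gene of the list that rose on control titanium, from 157 ± 22.1 to 258 ± 28.6 CPM, at 0.72 ± 0.12 (edgeR adjusted p = 5.26e-04), and it was also higher on nanotopography at 0.57 ± 0.12 (edgeR adjusted p = 7.02e-04). After GC correction 3 of the list were higher on control titanium, Gpc4 at 0.67, Sdc2 at 0.37 and Gpc6 at 0.31. Over all genes 19.7% were called on that surface, and 26.7% after correction. On nanotopography 3 of the 10 rose and 4 fell, with a median of 0.00 beside 0.00 over all genes, and after correction 3 rose and 2 fell. Calls there covered 59.2% of all genes, and 40.4% after correction. The glypican Gpc1 fell from 1624 ± 189 to 585 ± 115 CPM, at -1.47 ± 0.14 uncorrected (edgeR adjusted p = 2.86e-07) and -0.46 after GC correction (edgeR adjusted p = 4.90e-05). Flrt2, a membrane protein that can bind FGF receptors, was at 1.55 ± 0.23 uncorrected (edgeR adjusted p = 3.15e-05) and 0.82 corrected. The syndecan Sdc3 turned, from -0.52 ± 0.09 uncorrected (edgeR adjusted p = 1.92e-04) to 0.45 corrected (edgeR adjusted p = 2.72e-04).

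Between receptor and ERK, few genes were called on control titanium. Of 14 tested adaptors and RAS regulators, 1 fell, Frs2, the docking protein of FGF receptors, at -0.29 ± 0.10 (edgeR adjusted p = 0.0409), and none rose. Of 16 cascade genes, Mapk3, which encodes ERK1, rose by 0.50 ± 0.15 (edgeR adjusted p = 0.0237), and Map2k2, which encodes the kinase MEK2, was at -0.49 ± 0.17 (edgeR adjusted p = 0.0483). Mapk3 fell with osteoclasts on nanotopography, at -0.81 ± 0.15 (edgeR adjusted p = 2.15e-04), and was at 0.13 there after correction (edgeR adjusted p = 0.488). Its interaction was -1.31 uncorrected (edgeR adjusted p = 2.45e-04) and -0.38 corrected (edgeR adjusted p = 0.168). On nanotopography 6 adaptors and regulators rose and 2 fell, with a median of 0.06, and 5 cascade genes rose and 5 fell, with a median of -0.10 beside 0.00 over all genes. After correction the counts on nanotopography were 3 higher and 2 lower of the adaptors and regulators and 3 higher and 6 lower of the cascade, and on control titanium 0 and 2, and 3 and 1. Of all genes, 19.7% were called on control titanium and 59.2% on nanotopography, and 26.7% and 40.4% after correction. With osteoclasts on nanotopography Map2k2 fell from 184 ± 20.5 to 42 ± 12.5 CPM, at -2.13 ± 0.18 (edgeR adjusted p = 8.50e-08), and remained called after GC correction at -1.0 (edgeR adjusted p = 3.79e-07). Hras was at -1.36 ± 0.16 and Braf at 1.23 ± 0.16 uncorrected, and at -0.70 and 0.45 corrected, each called in both fits. In isolated cells nanotopography alone moved both genes the other way, with values given below. Sos1, an exchange factor that loads RAS with GTP, was at 0.92 ± 0.13 uncorrected (edgeR adjusted p = 1.21e-05) and 0.06 corrected (edgeR adjusted p = 0.567).

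Among the other inhibitors of ERK and of receptor kinases, 8 of 10 listed genes were tested. On control titanium 2 rose and 1 fell, with a median of 0.22 beside -0.02 over all genes, and the same 3 were called after GC correction. The share of all genes called there was 19.7%, and 26.7% after correction. Dusp4, a nuclear phosphatase of ERK, rose from 0.779 ± 0.174 to 2.84 ± 0.998 CPM, at 1.83 ± 0.44 (edgeR adjusted p = 0.00706). Its values rest on few reads, 198 counts in all 12 libraries. Errfi1, an inhibitor of the EGF receptor, rose from 12.6 ± 1.97 to 21 ± 2.06 CPM, at 0.74 ± 0.15 (edgeR adjusted p = 0.00201). Dusp7, a cytoplasmic ERK phosphatase, fell from 28.5 ± 2.19 to 17.7 ± 7.07 CPM, at -0.70 ± 0.21 (edgeR adjusted p = 0.0273).

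On nanotopography Dusp4 rose from 1.03 ± 0.306 to 4.61 ± 1.67 CPM, at 2.15 ± 0.40 (edgeR adjusted p = 2.42e-04), and Errfi1 from 11.1 ± 1.01 to 18.6 ± 0.815 CPM, at 0.74 ± 0.15 (edgeR adjusted p = 6.01e-04). Both were called after correction, at 2.87 and 0.63. Dusp7 was at -0.92 ± 0.21 uncorrected (edgeR adjusted p = 0.00143) and 0.00 corrected (edgeR adjusted p = 0.99). In all, 3 of the 8 rose and 1 fell there, with a median of 0.14 beside 0.00 over all genes, of which 59.2% were called. After correction 3 were higher and 1 lower, beside 40.4% of all genes, and 2 were called alike in both fits. Sh3kbp1 turned from 0.28 ± 0.10 (edgeR adjusted p = 0.03) to -0.33 (edgeR adjusted p = 0.00339). Spred3 was called after correction alone, at 0.90 (edgeR adjusted p = 0.016). Of the 4 phosphatases that act mainly on JNK and p38, Dusp1 rose on both surfaces, at 0.84 ± 0.21 on control titanium (edgeR adjusted p = 0.0105) and 0.66 ± 0.23 on nanotopography (edgeR adjusted p = 0.0215; 1.18 corrected), and Dusp8 was at -0.78 ± 0.23 on nanotopography (edgeR adjusted p = 0.0076) and 0.22 after correction (edgeR adjusted p = 0.475).

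Transcription factors that ERK phosphorylates or induces moved in both directions. Of 21 tested, 8 rose and 3 fell on control titanium, with a median of 0.07 beside -0.02 over all genes, and 10 of these were called in the same direction after GC correction. Calls there made up 19.7% of all genes, and 26.7% after correction. Ier3, an early response gene, rose from 38.9 ± 7.43 to 108 ± 9.15 CPM, at 1.49 ± 0.13 (edgeR adjusted p = 6.43e-07), and Maff, a small MAF factor, from 4.08 ± 0.985 to 17.4 ± 4.61 CPM, at 2.12 ± 0.23 (edgeR adjusted p = 7.35e-06). Klf4 fell from 472 ± 8.04 to 277 ± 7.63 CPM, at -0.77 ± 0.09 (edgeR adjusted p = 2.08e-05). On nanotopography 9 rose and 9 fell, with a median of 0.09, and after correction 11 rose and 4 fell, 13 of them as in the uncorrected fit. All-gene shares called there were 59.2%, and 40.4% after correction. Junb was at -2.17 ± 0.18 uncorrected (edgeR adjusted p = 8.10e-08) and -0.73 corrected, Erf, an ETS repressor that ERK inactivates, at -1.88 ± 0.17 (edgeR adjusted p = 1.85e-07) and -0.76, and Myc at -1.52 ± 0.14 (edgeR adjusted p = 1.85e-07) and -1.05. All 3 were called in both fits. Ier3 and Maff rose on nanotopography too, at 0.99 ± 0.13 and 1.52 ± 0.24 uncorrected and 1.65 and 2.43 corrected, called in each fit. Klf4 was at -0.55 ± 0.09 there (edgeR adjusted p = 8.50e-05) and at 0.05 corrected (edgeR adjusted p = 0.74).

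Of 11 tested genes that serve as outputs of the ERK pathway, 4 rose and 1 fell on control titanium, with a median of 0.23 beside -0.02 over all genes, and the same 5 were called after correction. Among all genes 19.7% were called there, and 26.7% after correction. Phlda1 rose from 14.2 ± 3.45 to 37.7 ± 1.19 CPM, at 1.42 ± 0.16 (edgeR adjusted p = 9.31e-06). Odc1, the first enzyme of polyamine synthesis, rose from 36.5 ± 12.6 to 89.8 ± 13.2 CPM, at 1.31 ± 0.18 (edgeR adjusted p = 1.03e-04). Ccnd1, the gene of cyclin D1, fell from 250 ± 7.42 to 187 ± 3.71 CPM, at -0.42 ± 0.09 (edgeR adjusted p = 0.00466). On nanotopography 6 rose and 2 fell, with a median of 0.52 beside 0.00 over all genes, of which 59.2% were called. After correction 6 rose and 1 fell, beside 40.4% of all genes, and 5 were called alike in both fits. Epha2 turned from -0.51 ± 0.12 (edgeR adjusted p = 0.00161) to 0.29 (edgeR adjusted p = 0.0057). Phlda1 was at 0.68 ± 0.16 uncorrected (edgeR adjusted p = 0.00188) and 1.75 corrected, and Ccnd1 at -1.04 ± 0.10 (edgeR adjusted p = 2.22e-07) and -0.83. The chromatin protein gene Hmga2 was at -0.50 ± 0.21 on control titanium (edgeR adjusted p = 0.109) and rose on nanotopography by 0.90 ± 0.19 (edgeR adjusted p = 7.90e-04; 0.55 corrected), with an interaction of 1.40 (edgeR adjusted p = 0.00113).

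**Figure D4:**
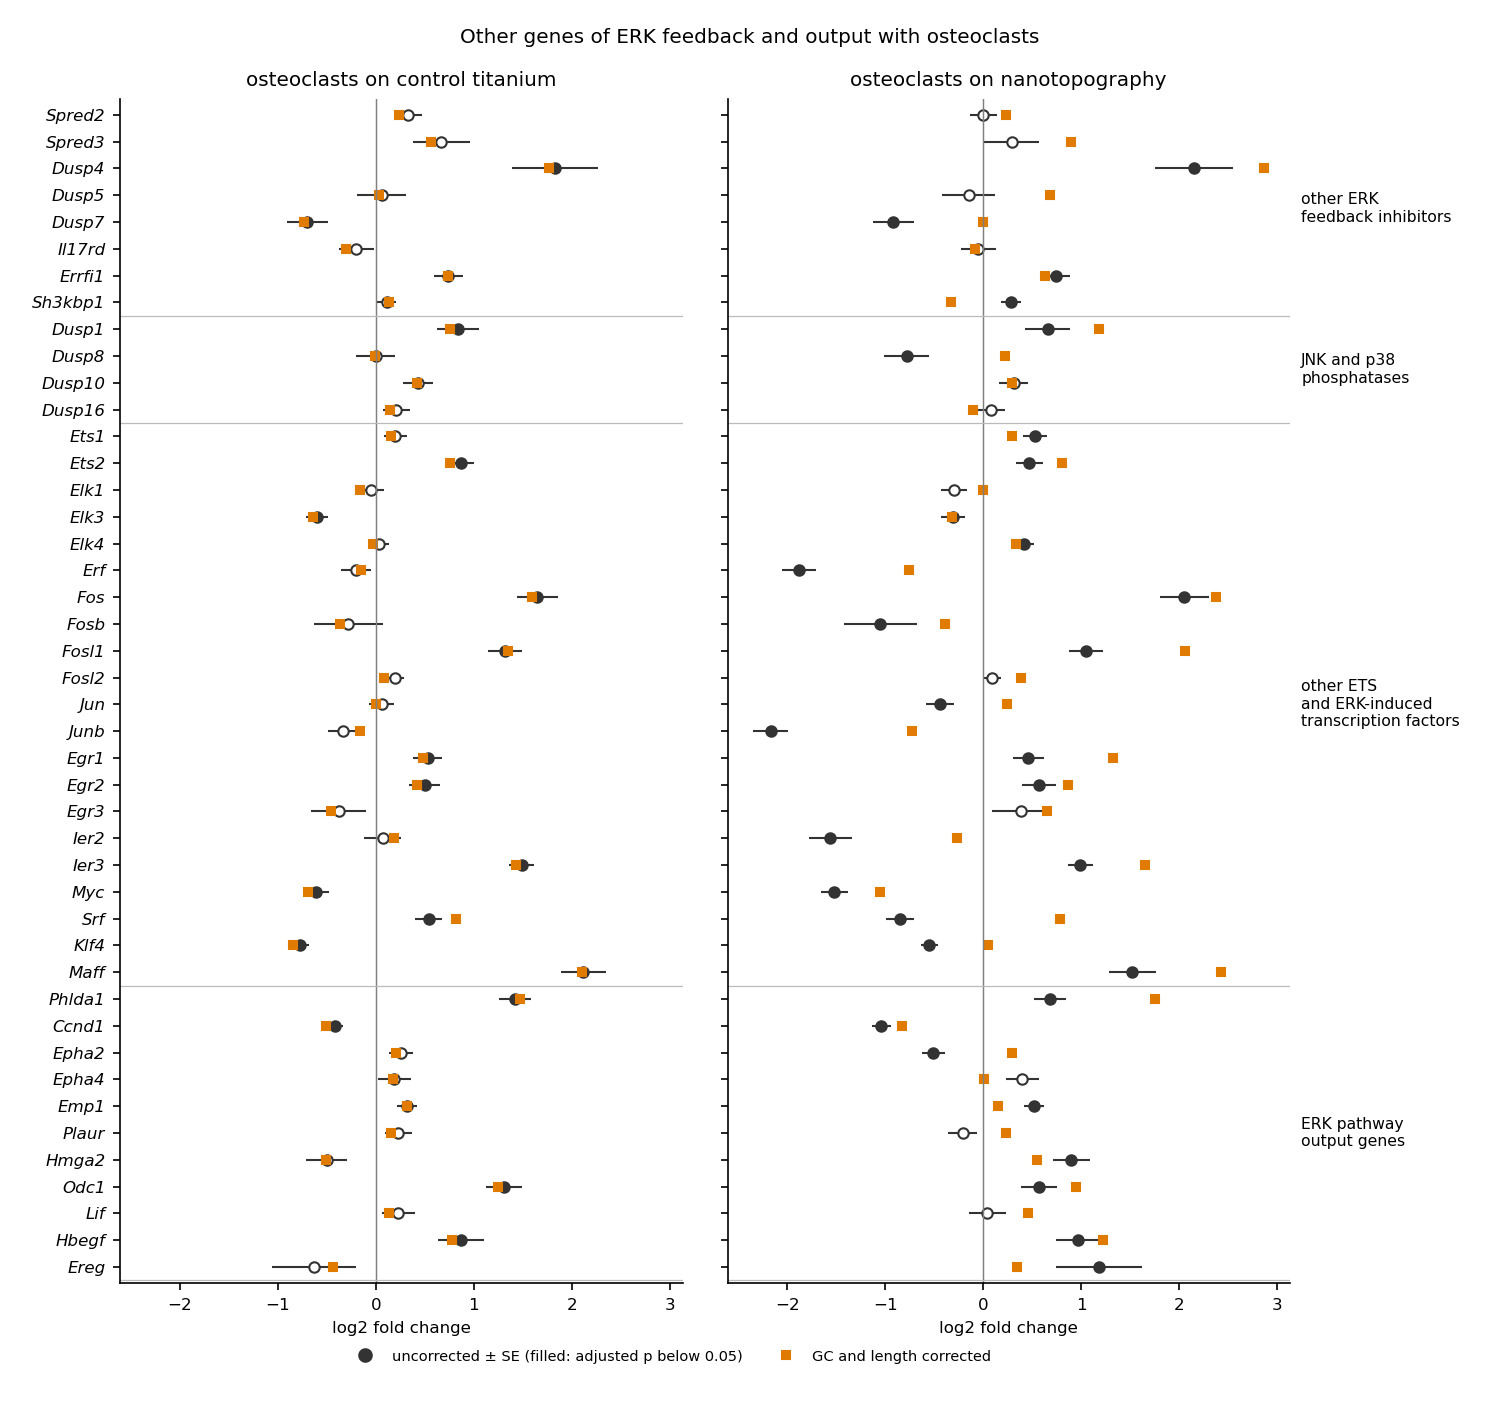
Log2 fold change with osteoclasts on control titanium (left) and on nanotopography (right) for the tested genes of 4 pathway lists; circles are uncorrected ± SE, filled at an adjusted p below 0.05, and squares are corrected for GC content and length. Circles and squares lie close together on the left, with Dusp4 at 1.83 and Maff at 2.12, and are pulled apart on the right, where Junb is at -2.17 uncorrected.

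In isolated cells the surface alone lowered 2 of the 21 transcription factors, Klf4 by a log2 fold change of -0.38 (edgeR adjusted p = 0.0238) and Ets1 by -0.42 (edgeR adjusted p = 0.0387), beside 9.71% of all genes. After GC correction Klf4 was at -0.59 (edgeR adjusted p = 0.00531) and Ets1, no longer called, at -0.36 (edgeR adjusted p = 0.0514). Of the 16 cascade genes, 2 were higher, Hras at 0.61 (edgeR adjusted p = 0.0281) and Mapk3 at 0.50 (edgeR adjusted p = 0.0442). Braf was the 1 lower, at -0.68 (edgeR adjusted p = 0.0247). Corrected values were 0.38 for Hras (edgeR adjusted p = 0.0393), -0.33 for Braf (edgeR adjusted p = 0.0398) and 0.26 for Mapk3 (edgeR adjusted p = 0.29). The corrected share of all genes was 5.11%. In co-culture the surfaces differed for 1 of the 8 feedback inhibitors, Sh3kbp1, at 0.32 uncorrected (edgeR adjusted p = 0.0199) and -0.05 corrected. After correction the 1 called was Dusp4, at 1.27, from 0.72 uncorrected (edgeR adjusted p = 0.00622 and 0.0865). The surfaces also differed for 10 of the 21 transcription factors, 1 higher and 9 lower on nanotopography, and after correction for 3 higher and 3 lower. The share of all genes called between the surfaces in co-culture was 42%, and 18% after correction.

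The tested protein-coding genes nearest in profile to a member, by the root mean square difference of centred log2 CPM over the 12 libraries, depended on the correction. For Spry2 the nearest was Pstpip2 at 0.255, against a root mean square of 0.706 for Spry2 itself, and after GC correction Klhl24 at 0.202. Pstpip2 was at 5.98 and 4.61 CPM in the isolated groups on control titanium and nanotopography and at 11.5 and 11.3 CPM in the co-cultures. Fgfr1 was nearest to Sipa1l3 at 0.067 and after correction to Hook3 at 0.056. Dusp6 was nearest to Selenok at 0.10 and then to Mapkbp1 at 0.096.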

How the data were processed

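Total RNA of MC3T3-E1 cells was made into SMARTer libraries, per the labels' protocols. The authors deposited 1 table per library with raw read counts per Ensembl gene, and the submitters' processing notes name cutadapt, FastQC 0.63, STAR 2.4, HTSeq, DESeq2 and build mm10. The roles of these tools, the annotation release and the strand setting are not given in the sources used here, so reads of overlapping antisense genes cannot be told apart. In 11 of 12 files the last line is incomplete, and the 52654 genes present in all of them were used, which hold at least 99.924% of the counts of each library. All matched GENCODE M21 identifiers with the version removed.

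The 10 members and the pathway and marker lists were chosen with earlier results of these data known, so the lists are described by counts and medians with no test of a list. Counts were scaled by TMM and filtered with filterByExpr, and 1 edgeR 4.0.16 (R 4.3.3) quasi-likelihood fit with 4 group means over the 12 libraries gave the 4 comparisons and the interaction. Standard errors are approximate (the size of a log2 fold change over the root of its F statistic), and 95% intervals use the normal distribution with them. The common biological coefficient of variation was 12.3%. The fit was tested on simulated data.

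The GC correction removed each library's loess trend (span 0.3) of log2 CPM with GC content of the longest transcript, then with log2 exonic length, as offsets. Other alternatives were RLE and upper-quartile scaling, no filter, DESeq2 1.42.0, limma-voom 3.58.1, only the groups compared, the replicate number as a block, and leaving out each library. The text names all 10 members, of each list up to 3 called genes with the smallest p in a comparison, the nearest profile of a member (given for Spry2, Fgfr1 and Dusp6, with the others not reported here), and listed genes at 0. Fgf18, Sdc2, Gpc6, Spred3, the values of Sh3kbp1 and Epha2 with osteoclasts, and the second surface's values of genes named on the other one, were chosen after values were seen. So were the values of the osteoclast markers Ctsk, Mmp9, Nfatc1 and Atp6v0d2 on control titanium. Replicates of a group differed beyond counting noise, so no library was counted as a copy of another.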

Additional observations from a re-analysis of the deposited data

Results flagged for a closer look

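The effect of osteoclasts differed between the surfaces for 2 of the 10 genes by the interaction test of edgeR, beside 47.8% of all genes. The count alone does not set the 10 genes apart. Fgfr1 had an interaction of -0.68 on the log2 scale (edgeR adjusted p = 0.0015), with -0.09 on control titanium and -0.77 on nanotopography, and all 3 co-culture libraries on nanotopography below the other 9. Spred1 had an interaction of 0.78 (edgeR adjusted p = 0.00134), with 0.01 and 0.79, and all 3 of those libraries above the other 9. After correction for GC content and length the same interactions were -0.05 (edgeR adjusted p = 0.746) and -0.09 (edgeR adjusted p = 0.599).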

How the results depend on the processing

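The rise of Spry2 with osteoclasts was called on both surfaces in each of the 7 other uncorrected settings, both GC-corrected ones and all 6 fits per surface that left out 1 library, where its log2 fold change was 0.87 to 1.13 on control titanium and 1.38 to 1.88 on nanotopography. Over the fits that left out 1 library, the number of members called was 1 to 1 with osteoclasts on control titanium, 4 to 5 on nanotopography, 0 to 0 between surfaces in isolated cells, 3 to 4 in co-culture and 2 to 3 for the interaction. Over all genes these fits called 1436 to 2976, 6725 to 8108, 3 to 2877, 3274 to 5817 and 5310 to 6957 in the same order, so 0 members in isolated cells stood beside almost no calls at all in 3 of the 6 fits. Beyond 1.5 times the full count, calls moved in isolated cells without control library 1, 2 or 3 (3, 3 and 2145) or nanotopography library 1, 2 or 3 (65, 2877 and 3). With osteoclasts on control titanium they moved without the first or second isolated library (1483 and 1436) or the second co-culture library (1629), and between surfaces in co-culture without the first nanotopography library (3274). The GC correction gave 2 called with osteoclasts on control titanium and 1 between surfaces in isolated cells, and DESeq2 gave 1 there, Fgfr2 in place of Fgfr3. The GC correction reversed Fgfr3 with osteoclasts on nanotopography (0.43), between surfaces in co-culture (0.08) and in the interaction (0.46). It also reversed Spred1 in the interaction (-0.09), and the same 4 values came with the replicate block added. The fall of Fgfr1 on control titanium seen after correction was not called with the block added. The cause was not tested. Over all genes the GC correction moved the calls between surfaces in isolated cells from 1295 to 682 (2100 with no filter, 475 with block and correction). In co-culture it moved them from 5599 to 2395 (2122 with the block) and for the interaction from 6383 to 2800.

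Whether replicate numbers pair the samples could not be told from correlations of the libraries' deviations from their group means. Those of 18 same-numbered pairs were -0.391 to 0.303, and 6 were over 0.1. Pairs with different numbers reached -0.429 and 0.401, and deviations from a mean of 3 libraries are tied to one another. With the replicate block alone the members called stayed at 1, 5, 0, 3 and 2, and all 50 member values kept their side of the threshold. Spry4, Etv4 and Etv5 rest on few counts, so only large changes were detectable.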

Other observations

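Of 16 other receptor tyrosine kinases listed, 12 were tested. With osteoclasts on control titanium 3 rose and 1 fell, with a median log2 fold change of 0.09 beside -0.02 over all genes, of which 19.7% were called. Pdgfrb, a receptor for platelet-derived growth factor, rose from 80.1 ± 2.98 to 123 ± 11.7 CPM (SD, n = 3), at 0.62 ± 0.10 (edgeR adjusted p = 4.79e-04), and Ddr1, a collagen receptor, rose by 0.52 ± 0.16 (edgeR adjusted p = 0.032). Pdgfra fell by 0.32 on the log2 scale (edgeR adjusted p = 0.0194). On nanotopography 6 rose and 4 fell, beside 59.2% of all genes called, and after GC correction 4 rose and none fell, beside 40.4%. Ddr1 fell there from 52.8 ± 8.07 to 22.6 ± 5.34 CPM, at -1.22 ± 0.17 uncorrected (edgeR adjusted p = 1.84e-05), and was at -0.13 corrected (edgeR adjusted p = 0.409). Axl, a receptor of the TAM family, was at -0.74 ± 0.12 uncorrected (edgeR adjusted p = 4.64e-05) and -0.23 corrected (edgeR adjusted p = 0.0507), and the insulin receptor gene Insr at 0.75 ± 0.13 uncorrected (edgeR adjusted p = 1.06e-04) and 0.34 corrected (edgeR adjusted p = 0.00585).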
